A study of Arabidopsis thaliana with 4 samples.

Results

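The WRKY transcription factors are a plant family of DNA-binding proteins. On the array used here 59 of the 20341 genes with a probe set naming a single gene are members. They were chosen by title: the authors' annotation of the probe set had to contain WRKY and a single gene code, and the brightest probe set would have stood for a gene with several. Every member had 1 probe set. WRKY47 (AT4G01720), the gene disrupted in the mutant, was left out of the family and used as a check of the labels. Of 71 family genes in a list drawn up by gene code, 57 were members by this rule, and 2 further members (AT3G32090 and AT5G46310) carry only the title of a WRKY family factor.

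A WRKY protein holds a DNA-binding domain with the amino acids that give the family its name, followed by a zinc finger, and most members bind the W-box, a short promoter element found in many defence and stress genes, WRKY genes included. The number of domains and the form of the finger divide the family into subgroups I, IIa to IIe and III. In roots, members act in phosphate starvation, in the control of malate release under aluminium and in immunity, often downstream of MAP kinases. Because WRKY genes carry W-boxes themselves, members are known to act on each other's transcription.

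Roots of 4-week-old Arabidopsis thaliana plants grown in hydroponic culture were measured in 4 groups of 1 array each. The groups were wild type and the mutant wrky47-1, each kept for 6 h in 0.5 mM CaCl2 either without aluminium (control) or with 25 µM AlCl3 (Al). All groups were thus in CaCl2 solution. The sources used here do not give the accession of the wild type, the number of plants pooled or the site of the mutation. With n = 1 per group no difference can be set against a spread between replicates, so no test was made and no p-value is given. Each difference below is one between single arrays. In bulk roots, fewer cells of a type and less RNA per cell cannot be told apart.

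Signals are the authors' processed values on a linear scale, and differences are on the log2 scale, so that 1 is 2-fold. A signal counted as detected above the 40th percentile of all gene probe sets of its array, a floor of 81.1 or less. "Rose" and "fell" mean a difference of at least 2-fold between arrays on which the gene was detected. WRKY47 gave 172.9 (control) and 203 (Al) in wild type, and 27.5 and 24.1 in wrky47, where it was below the floor. Of 7 root marker genes with a probe set, SCR, SHR, CASP1, WOL and NRT2.1 were detected on all 4 arrays, and the root hair regulators RHD6 and RSL4 on none. Of 4 green tissue markers, RCA, LHCA4 and LHCB4.1 were detected throughout with signals up to 289, and PSBO1 on no array. The mean of the Dap probe sets, which read a spike-in, was 7.74 on the log2 scale for wild-type control and 8.21 to 8.25 elsewhere.

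Most of the family was detectable in roots. Of the 59 members, 46 were above the floor on all 4 arrays, 3 on some and 10 on none, while 12223 of all 20341 genes were above it on all 4. The 10 undetected members were WRKY10, WRKY12, WRKY13, WRKY22, WRKY30, WRKY34, WRKY42, WRKY67 and the genes AT3G32090 and AT5G46310. WRKY34 is known from pollen and WRKY10 from the seed endosperm. WRKY12 and WRKY13 are known from the stem, where they act on secondary wall formation. On the control arrays 46 (wild type) and 47 (wrky47) members were detected, and on each Al array 49. The added genes were WRKY31, WRKY8 and WRKY66, whose signals were higher in Al.

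**Figure D1:**
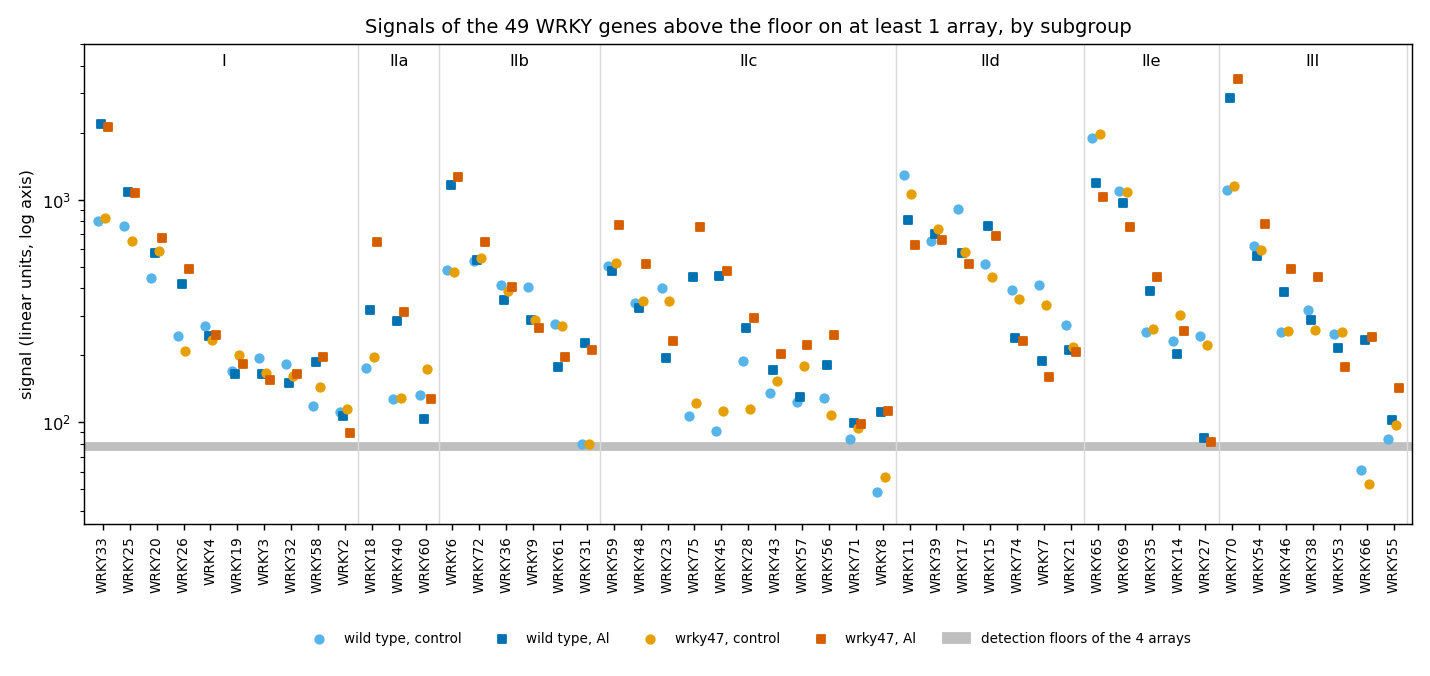
Signals of the 49 WRKY genes above the floor on at least 1 array (log axis), grouped by subgroup, with 1 point per array: circles are control, squares are Al, blue is wild type and orange is wrky47. The grey band covers the detection floors, the highest at 81.1. In most columns both circles lie close together, and WRKY75, WRKY45 and WRKY27 have the squares well apart from them.

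The first question is what 6 h of Al did to the family in wild-type roots. Of 46 members measured in both solutions, 6 rose and 3 fell. The 6 that rose were WRKY45, WRKY75, WRKY33, WRKY70, WRKY6 and WRKY40, and those that fell were WRKY27, WRKY7 and WRKY23. Among all 12434 genes measured, 3.05% rose and 2.42% fell, which compares with 13.0% and 6.52% of the members. At 1.5-fold 11 members were higher and 8 lower, against 7.47% and 9.39% of all genes. The median difference was -0.05 for the measured members and -0.12 for all genes, and 22 members were above 0, 47.8% against 35.9% of all genes. With arrays centred, scaled to the 75th percentile or quantile-normalized the family median was 0.02, 0.01 and 0.07, so its sign changed with the scaling. WRKY31 and WRKY66, below the floor in control, were at least 2.79-fold and 2.90-fold higher in Al.

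In wrky47 roots 11 of 47 measured members rose and 2 fell, against 3.42% and 1.97% of all 12465 genes. The 11 were WRKY75, WRKY45, WRKY18, WRKY70, WRKY6, WRKY31, WRKY28, WRKY33, WRKY40, WRKY26 and WRKY56. The 2 that fell were WRKY27 and WRKY7. The family median was 0.23, that of all genes -0.07, and 29 members were above 0, 61.7% against 42.2% of all genes. At 1.5-fold 16 members were higher and 6 lower, against 8.76% and 7.06%. WRKY66, not detected in control, was at least 3.04-fold higher. WRKY31 enters this count and not that of wild type because its control signals of 79.4 and 79.9 lay on either side of the floors of the wild-type and wrky47 arrays.

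Both Al comparisons use separate arrays, so their calls can be set against each other. Over the 46 members above the floor on all 4 arrays, 6 rose in wild type and 10 in wrky47, and all 6 were among the 10, which is 100% of the first list and 60% of the second. Over all genes on 4 arrays, 300 were shared, 80.6% of the 372 that rose in wild type and 74.4% of the 403 in wrky47. The Al differences in the genotypes correlated over the 46 members with Pearson's r at 0.924 and Spearman's rho at 0.898, and over 12223 genes with 0.879 and 0.781. These are descriptions across genes of the same 4 arrays. In 18 members both Al arrays were above both control arrays, 39.1% of the 46 against 24.1% of all genes. In 15 members both Al arrays were below both control arrays, 32.6% against 42.2%.

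**Figure D2:**
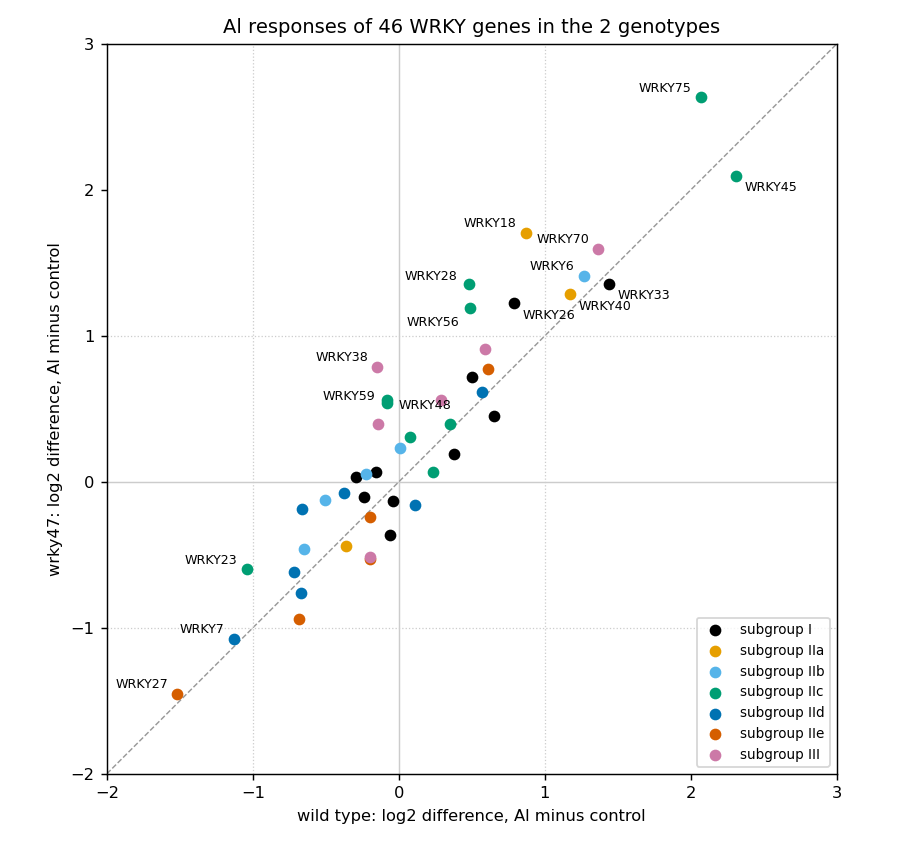
Log2 difference between Al and control in wild type (horizontal) and wrky47 (vertical) for the 46 WRKY genes detected on all 4 arrays, coloured by subgroup. The dashed line marks equal responses and dotted lines mark 2-fold. WRKY75 and WRKY45 lie at the upper right, WRKY27 and WRKY7 at the lower left, and WRKY38, WRKY28 and WRKY18 stand farthest above the line.

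Subgroup IIc holds the members with the highest Al differences, and both are known from phosphate starvation. WRKY75 (AT5G13080) promotes phosphate acquisition and shapes root hairs and lateral roots. Its signal was 106.6 in wild-type control, 448 in wild-type Al, 121.9 in wrky47 control and 757 in wrky47 Al. Both Al arrays stood far above both control arrays, and the log2 differences were 2.07 in wild type and 2.63 in wrky47. WRKY45 (AT3G01970) activates a phosphate transporter gene of the root. It had signals of 91.2 and 452 in wild-type control and Al, and of 112.2 and 479 in wrky47. The differences were 2.31 and 2.09, again with both Al arrays on top. Among all measured genes WRKY45 held rank 30 of 12434 from the top in wild type, and WRKY75 held rank 17 of 12465 in wrky47.

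Other IIc members were uneven. WRKY28, which activates the salicylic acid synthesis gene ICS1, gave signals of 189.3 in wild-type control, 264 in wild-type Al, 115.0 in wrky47 control and 295 in wrky47 Al. It was lowest on the wrky47 control array, and its Al difference was 0.48 in wild type and 1.36 in wrky47. WRKY56 had signals of 128.5, 180.6, 107.5 and 246 in the same order, with differences of 0.49 and 1.19. WRKY8, a salt stress and virus defence factor, was below the floor in both controls (48.5 and 56.8) and at 111.7 and 111.9 in Al, at least 1.38-fold and 1.41-fold higher. The lowest of the subgroup was WRKY23, which acts in auxin distribution and flavonol synthesis in the root. Its signal went from 402 to 195.1 in wild type and from 350.3 to 231 in wrky47, differences of -1.04 and -0.60. That fall in wild type was just past 2-fold as deposited and within it with arrays centred (-0.97), scaled to the 75th percentile (-0.99) or quantile-normalized (-0.96). WRKY43, WRKY57, WRKY71, WRKY48 and WRKY59 lay between -0.08 and 0.56 in both genotypes.

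In subgroup IIa, WRKY18 and WRKY40 were higher on both Al arrays and WRKY60 was lower. These are the 3 members of the subgroup, and in Arabidopsis they bind each other and act on pathogen defence and abscisic acid signalling. WRKY40 gave signals of 127.0 in wild-type control, 286 in wild-type Al, 127.9 in wrky47 control and 312 in wrky47 Al. Its differences of 1.17 and 1.29 were past 2-fold in both genotypes. WRKY18 had signals of 174.6, 319, 197.3 and 644 in the same order. The wrky47 Al array stood apart from the other 3, and the differences were 0.87 in wild type and 1.71 in wrky47. WRKY60 had signals of 132.5, 103.0, 172.7 and 127.2, so that both Al values lay below both control values, with differences of -0.36 and -0.44.

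Most subgroup I proteins carry a pair of WRKY domains. WRKY33, which activates camalexin synthesis and is needed for resistance to necrotrophic fungi, gave signals of 803 in wild-type control, 2175 in wild-type Al, 828 in wrky47 control and 2114 in wrky47 Al. The differences were 1.44 and 1.35, nearly the same in both genotypes. WRKY25 and WRKY26, which act with WRKY33 in heat tolerance, were also higher on both Al arrays than on both control arrays. WRKY26 went from 243 to 419 in wild type and from 209 to 489 in wrky47, differences of 0.79 and 1.23. WRKY25 differed by 0.51 and 0.72, and WRKY58 by 0.65 and 0.45. The other measured members of the subgroup, WRKY2, WRKY3, WRKY4, WRKY19, WRKY20 and WRKY32, lay between -0.37 and 0.38. WRKY3 and WRKY4 are known from resistance to necrotrophs, and WRKY19 encodes a chimera with a resistance protein.

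In subgroup IIb, WRKY6 and WRKY31 were the members past 2-fold with Al, WRKY31 in wild type only as a bound. WRKY6 acts in senescence and represses the phosphate exporter gene PHO1. Its signals were 484 in wild-type control, 1164 in wild-type Al, 474 in wrky47 control and 1260.5 in wrky47 Al. The control arrays were close to each other, as were the Al arrays, and the differences were 1.27 and 1.41. WRKY31 had signals of 79.4, 226, 79.9 and 211, the same pattern at the edge of detection, with a difference of 1.40 in wrky47. WRKY9 (-0.50 and -0.12), WRKY61 (-0.65 and -0.46), WRKY36 (-0.22 and 0.06) and WRKY72 (0.01 and 0.23) stayed within 2-fold. WRKY42, which shares the repression of PHO1 with WRKY6, was below the floor on all 4 arrays, with signals of at most 23.6.

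Subgroup III also divided. WRKY70, a factor between salicylic acid and jasmonate signalling, gave signals of 1106 in wild-type control, 2855 in wild-type Al, 1152 in wrky47 control and 3483 in wrky47 Al, with differences of 1.37 and 1.60. WRKY46, which represses the malate channel gene ALMT1, had signals of 255, 384, 258 and 486. Its differences of 0.59 and 0.91 were within 2-fold, with both Al arrays above both controls. WRKY66 was below the floor in control (61.3 and 52.9) and at 235 and 240.4 in Al. WRKY53, a senescence regulator, was lower in Al in both genotypes (-0.20 and -0.51).

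WRKY54, a close relative of WRKY70, and WRKY55 lie next to each other on chromosome 2 in the RefSeq table. WRKY55 had signals of 84.2, 102.7, 97.0 and 142.9 in wild-type control, wild-type Al, wrky47 control and wrky47 Al. WRKY54 had signals of 618, 561, 594 and 780.1 in that order, and only the wrky47 Al array stood above the others. WRKY38, an NPR1-dependent repressor of basal defence, had signals of 320.4, 289, 260.4 and 450.0. For both genes the Al difference had opposite signs in the genotypes, -0.14 and 0.39 for WRKY54 and -0.15 and 0.79 for WRKY38.

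The 2 genes that fell in both genotypes, WRKY7 and WRKY27, belong to subgroups IId and IIe. The IId proteins bind calmodulin, and WRKY7, WRKY11 and WRKY17 are known as repressors of basal defence against bacteria. WRKY7 gave signals of 413 in wild-type control, 188.4 in wild-type Al, 336 in wrky47 control and 159.5 in wrky47 Al. The differences were -1.13 and -1.08, with both Al arrays below both controls, and with an offset added before log2 the second was -0.96. WRKY11 had signals of 1291, 812, 1063 and 627, differences of -0.67 and -0.76. WRKY74 differed by -0.72 and -0.62, WRKY17 by -0.66 and -0.18 and WRKY21 by -0.38 and -0.08. WRKY39 lay at 0.11 and -0.16. WRKY15, a factor of oxidative and osmotic stress, was the exception with 0.57 and 0.62. The IId medians were -0.66 in wild type and -0.18 in wrky47 over 7 genes, against -0.12 and -0.07 for all genes.

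In subgroup IIe, WRKY27 had the lowest Al differences of the family in both genotypes. It is known from Arabidopsis as a factor that promotes wilting after infection with Ralstonia. Its signals were 243 in wild-type control, 84.9 in wild-type Al, 223 in wrky47 control and 81.6 in wrky47 Al. The Al values lay just above the floor, and the differences were -1.52 and -1.45. WRKY65 had signals of 1898, 1183, 1972 and 1026, with both Al arrays below both controls and differences of -0.68 and -0.94. WRKY69 differed by -0.19 and -0.53 and WRKY14 by -0.20 and -0.24. Only WRKY35 of the 5 measured IIe genes was higher in Al, by 0.61 and 0.77. WRKY22, an immune factor of this subgroup, was below the floor on all 4 arrays.

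**Figure D3:**
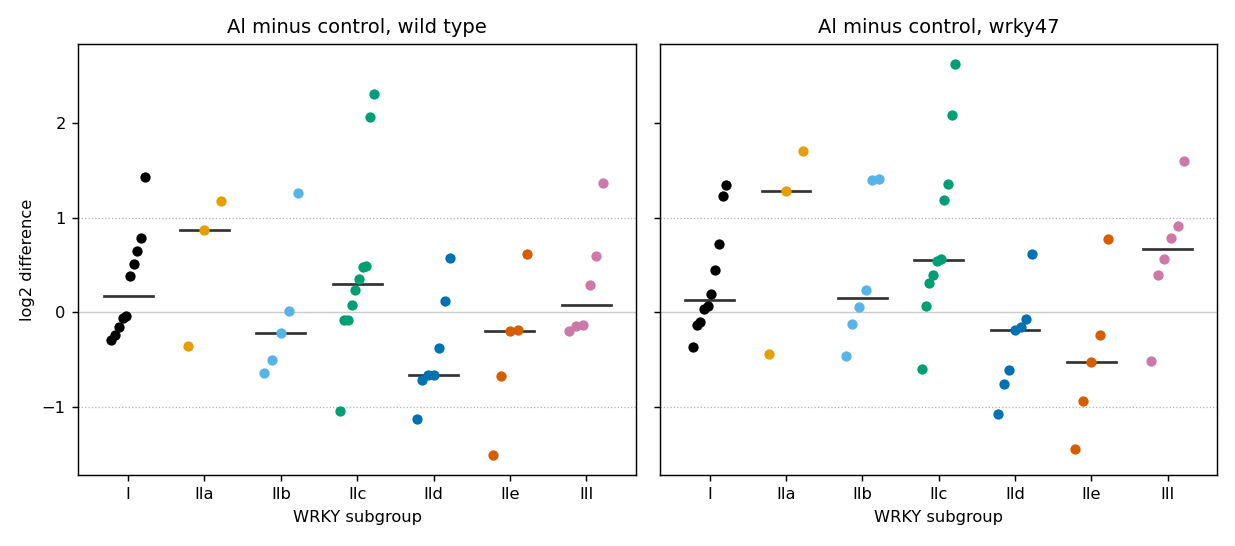
Log2 difference between Al and control for each measured WRKY gene by subgroup, in wild type (left, 46 genes) and wrky47 (right, 47 genes). Bars are subgroup medians and dotted lines mark 2-fold. The IId medians of -0.66 and -0.18 and the IIe medians of -0.20 and -0.53 are below 0 in both genotypes. The IIb medians are -0.22 in wild type and 0.14 in wrky47. Medians of all measured genes were -0.12 and -0.07. IIa, with 3 genes, has the highest medians (0.87 and 1.29).

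What the Al-responsive members shared in the authors' annotation was then examined. A gene ontology term for the response to chitin, a fungal wall elicitor, was attached to 15 members. Of the 14 measured, 4 rose in wild type and 5 in wrky47, and none fell. Of all genes with that term 23.8% rose in wild type and 27.8% in wrky47. Of the measured members without the term, 2 of 32 rose in wild type and 6 of 33 in wrky47. Among all genes without it 2.49% rose in wild type and 2.77% in wrky47. A term naming salicylic acid was attached to 10 measured members, of which 3 rose in wild type and 4 in wrky47. Over all genes with such a term the shares were 16.3% and 19.1%. The term for calmodulin binding was attached to 7 members, all measured, of which 0 rose and 1 fell in each genotype. Their medians of -0.66 and -0.18 equal those of the 7 IId genes, so this is no separate result. Of all genes with that term 4.49% and 3.92% rose. The shares of all genes with each term that fell were not computed. A term for the response to phosphate starvation was attached to 2 members, WRKY6 and WRKY75, and both rose in each genotype. Of all genes with a term naming phosphate in any way, 2.28% rose in wild type and 2.26% in wrky47.

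Genes that rise after touch or wounding moved with the Al arrays. Of 8 such genes without WRKY members, 7 rose in each genotype, where 3.05% and 3.42% of all genes rose. The list was chosen with earlier results of these data known, so this excess is a description alone. The medians of the 8 were 1.55 and 1.69, against -0.12 and -0.07 for all genes. Their summed signal went from 7627 to 24848 in wild type and from 6407 to 23213 in wrky47. The summed signal of the root markers went from 13702 to 5222 and from 12219 to 4026. Most of that sum was NRT2.1, a nitrate transporter, with 9817 and 4186 in wild type and 9867 and 3052 in wrky47. Of 5 measured root markers, 3 fell in wild type and 2 in wrky47, and 0 were above 0. Of all genes 2.42% and 1.97% fell. CASP1 went from 2649 to 249.5 in wild type and from 1288 to 193.4 in wrky47, differences of -3.41 and -2.73. WOL differed by -1.34 and -0.84. Green tissue markers summed to 573 and 684 in wild-type control and Al and to 385 and 538 in wrky47. The part of these in the WRKY differences was not tested.

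The genotypes were compared within each solution. In control solution the 46 measured members lay between -0.72 (WRKY28) and 0.53 (WRKY57), and none differed by 2-fold, where 0.103% of all 12602 genes were at least 2-fold higher in wrky47 and 0.206% lower. The median was 0.02 for the family and -0.05 for all genes, and 24 members were above 0, 52.2% against 39.9%. At 1.5-fold 0 members were higher and 2 lower, against 0.92% and 1.87% of all genes. WRKY17 followed WRKY28 at the low end, with signals of 909 in wild-type control and 584 in wrky47 control (-0.64). WRKY9 was at -0.49. WRKY57, a factor of drought tolerance, had signals of 123.9 and 179.2, and WRKY20 was at 0.41.

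In Al, 1 of 49 measured members, WRKY18, was at least 2-fold higher in wrky47 (319 against 644, a difference of 1.01) and 0 were lower. Of all genes 0.23% were higher and 0.111% lower. At 1.5-fold 6 members were higher and 0 lower, against 1.36% and 1% of all genes, and 31 were above 0, 63.3% against 50.7%. WRKY18 was within 2-fold (0.95) with an offset added before log2. Next came WRKY57 (0.76), WRKY75 (0.76), WRKY59 (0.69), WRKY48 (0.65) and WRKY38 (0.64). The lowest were WRKY11 (-0.37) and WRKY69 (-0.35). All 7 IId genes were below 0, between -0.37 and -0.03, and 10 of 11 IIc genes were above it.

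In 7 members both wrky47 arrays were above both wild-type arrays, 15.2% of the 46 against 9.92% of all genes. They were WRKY14, WRKY19, WRKY20, WRKY48, WRKY57, WRKY59 and WRKY72. WRKY57 had signals of 123.9 and 130.4 in wild type against 179.2 and 221 in wrky47. In 0 members were both wrky47 arrays below both wild-type arrays, against 12.3% of all genes.

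**Figure D4:**
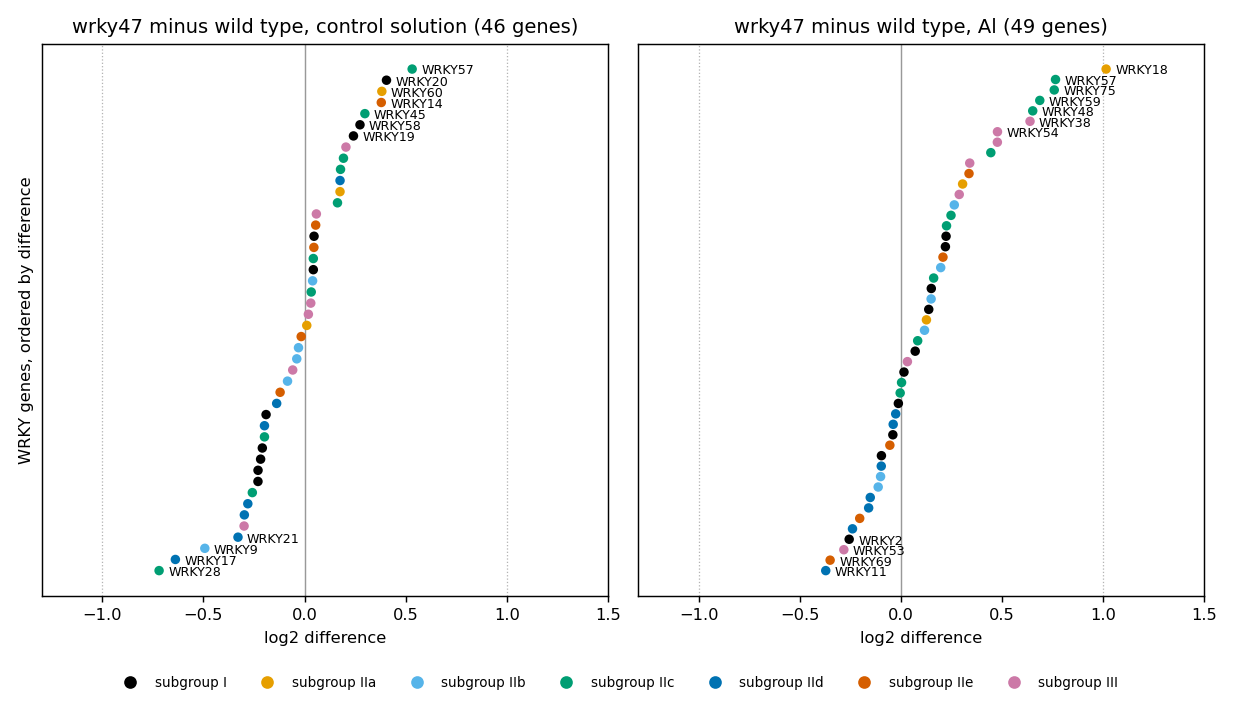
Log2 difference between wrky47 and wild type for each measured WRKY gene, ordered by value, in control solution (left, 46 genes) and Al (right, 49 genes). Colours are subgroups and dotted lines mark 2-fold. All control values lie between -0.72 and 0.53, and in Al the upper end reaches WRKY18 at 1.01.

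The difference of the Al responses, wrky47 minus wild type, uses all 4 arrays and shares them with each comparison above. It is also the difference between the arrays numbered 2 and those numbered 1 in the column headers. The design cannot tell these apart. No member reached 2-fold, where 0.131% of 12223 genes did so upward and 0.0573% downward. Those shares are 16 and 7 genes as deposited, and the split turned to 10 and 11 after quantile normalization and to 9 and 12 with arrays centred or scaled to the 75th percentile. At 1.5-fold 6 members were higher and 0 lower, against 2.1% and 0.875% of all genes. The highest were WRKY38 (0.94, rank 21 of 12223), WRKY28 (0.88, rank 32), WRKY18 (0.84, rank 42), WRKY56 (0.70), WRKY59 (0.64) and WRKY48 (0.62). The lowest were WRKY69 (-0.33) and WRKY53 (-0.31). The response was larger in wrky47 for 32 of 46 members, 69.6% against 59.6% of all genes, and the count was 28 with arrays centred, scaled to the 75th percentile or quantile-normalized. Those 28 are 60.9% of the members, against 47.7%, 46.7% and 48.4% of all genes in that order of scalings. The family median was 0.17 and that of all genes 0.05. For WRKY28 the difference came with a low wrky47 control signal, while for WRKY18 and WRKY59 it came with a high wrky47 Al signal.

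Genes around the family were taken from lists fixed by gene code. These lists were chosen with earlier results of these data known. In the MAP kinase cascade that phosphorylates several WRKY proteins, 1 of 9 measured genes rose in each genotype and 0 fell, where 3.05% and 3.42% of all genes rose. The gene that rose was MPK11, a close relative of MPK4. Its signals were 127.0 in wild-type control, 505 in wild-type Al, 206 in wrky47 control and 789 in wrky47 Al. The other 8 lay between -0.05 and 0.67. The list medians of 0.17 and 0.36 stand beside -0.12 and -0.07 for all genes.

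VQ proteins bind WRKY factors through a short motif. Of this list 1 of 10 measured genes rose in wild type (VQ12, 1.39) and 0 of 9 in wrky47, where VQ12 was at 0.91. Of all genes 3.05% and 3.42% rose. The list medians were 0.49 and 0.31, against -0.12 and -0.07 for all genes. VQ4, VQ9, VQ33 and CAMBP25 lay between -0.23 and 0.31. VQ29, below the floor in both controls (33.2 and 30.4), had signals of 443 and 548 in Al, at least 5.46-fold and 6.93-fold higher. SIB1, a partner of WRKY33, had signals of 86.6 and 169.0 in wild type and of 64.0 and 200.7 in wrky47, where the control was below the floor and Al at least 2.54-fold higher. MKS1, which links MPK4 to WRKY33, differed by 0.70 and 0.46.

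Among genes reported as targets of WRKY factors, 3 of 8 measured rose in wild type and 4 of 9 in wrky47, and 0 fell, where 3.05% and 3.42% of all genes rose. This list too was chosen with earlier results of these data known, so its excess is a description alone. Of its 16 genes with a probe set, 5 were below the floor on all arrays: CYP71A13, PR1, GL2, NST2 and NCED3. NPR1 was within 2-fold, at 0.43 and 0.38. PAD3, the last enzyme of camalexin synthesis and a target of WRKY33, had signals of 140.0, 451, 119.6 and 481 in wild-type control, wild-type Al, wrky47 control and wrky47 Al. CYP71A12, an indole pathway enzyme, had 184.3, 495, 191.8 and 937, with the wrky47 Al array highest. ACS6, an ethylene synthesis enzyme, differed by 1.13 and 1.10, and AOX1A, the alternative oxidase, by 0.75 and 1.04. Of 3 targets named for their regulators after their values were seen, PHO1, which WRKY6 represses, differed by -0.45 and -0.54, within 2-fold. ALMT1, which WRKY46 represses, differed by 0.85 and 0.82. ICS1, which WRKY28 activates, had signals of 701 and 492 in wild-type control and Al and of 1012 and 848 in wrky47, differences of -0.51 and -0.25.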

How the data were processed

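Root RNA went onto 4 arrays, 1 per group, with groups taken from the labels' genotype and solution. The authors deposited 22810 probe sets with log2 signals, per the headers of their table. A second set of columns, headed raw, holds deposited intensity values that are the antilog of the first (within 1.6e-06 as log2), and thus no scanner output. The submitters' processing notes name MAS5 without settings, and the sources used here do not give the scaling between arrays. Values in the second deposited table were identical (0 differed). What scaling left between arrays stays in every difference.

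Control probe sets (64) were set aside. Probe sets naming 1 gene gave 20341 genes, each with its brightest probe set. Log2 differences were computed for 5 comparisons with Python 3.11.15 and pandas 2.3.3, and no test was made. Where a gene was below the floor on 1 array of a pair, its other signal was divided by that array's floor, which bounds the fold. The computation was tested on simulated data. The number of arrays limits the precision. Subgroups and pathway lists were set by gene code from background knowledge, and all 59 members matched the RefSeq table of TAIR10.1, used for names and neighbours alone.

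Members and lists were chosen with earlier results of these data known. Members past 2-fold in any comparison were named, with up to 4 of each subgroup by Al difference and up to 4 genes of each pathway list, and other members and markers were named to account for the family. The 9 alternatives were 3 scalings, 2 filters, 2 thresholds, the mean of probe sets and an offset.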

Additional observations from a re-analysis of the deposited data

Results flagged for a closer look

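For 3 members the Al difference had opposite signs in the genotypes and the responses differed by at least 1.5-fold, a difference that was not tested since each group has 1 array. WRKY38 stood at -0.15 in wild type and 0.79 in wrky47, a difference of the responses of 0.94. For WRKY59 the values were -0.08 and 0.56, a difference of 0.64. WRKY48, a repressor of basal defence, had -0.08 and 0.54, a difference of 0.62. Signs were opposite in 8 of the 46 members and in 20.2% of all genes. The response was at least 1.5-fold higher in wrky47 for 2.1% of all genes and lower for 0.875%. The share of all genes meeting both conditions was not computed. The wild-type control array, whose Dap spike-in signal was 7.74 against at least 8.21 on the others, enters each difference of the responses. Its part was not tested. Each difference of the responses is also that between the arrays numbered 2 and 1 in the column headers, which the design cannot tell apart.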

How the results depend on the processing

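Of 135 family counts and medians recomputed under the alternatives, 116 stayed within 1.5-fold of the deposited count or 0.1 of the median, and none of the 191 recomputed values of single members past 2-fold changed sign. Part of this was fixed in advance. With 1 probe set per member, the mean of probe sets repeats the deposited values. Filters and thresholds leave the value of a single member unchanged, and thresholds leave a median unchanged. Only the scalings and the offset could change a sign. Of these 191, 17 were within the threshold when it was 3-fold, and 6 under the other alternatives: WRKY23 in wild type under the 3 scalings and the offset, and WRKY7 and WRKY18 under the offset. With the floor at the 60th percentile, which leaves 23 and 24 members measured, 3 rose and 0 fell in wild type and 3 rose and 0 fell in wrky47. The 3 were WRKY6, WRKY33 and WRKY70 in both genotypes. The other members past 2-fold with Al, among them WRKY45, WRKY75 and all that fell, were no longer measured. Over all genes 205 rose and 147 fell in wild type with that floor, and 241 and 122 in wrky47. At 1.5-fold, 11 members were higher and 8 lower in wild type, 6 were lower with Al in wrky47, 2 were lower in wrky47 in control solution, 6 were higher in wrky47 in Al and 6 had a larger response in wrky47. At 3-fold, 2 rose and 0 fell in wild type, 4 rose and 0 fell in wrky47, and 0 were higher in wrky47 in Al. At that threshold 126 of all 12434 genes rose and 69 fell in wild type. Of 12465 genes 147 rose and 74 fell in wrky47, and 3 of 12602 were higher in wrky47 in Al. With the offset 1 member fell in wrky47, and 0 were higher in wrky47 in Al, against 191 and 17 of all genes. The wild-type median was 0.074 both after quantile normalization and without the filter, against -0.05. In control solution the genotype split over all genes was 13 higher and 26 lower as deposited, and 19 and 19 after quantile normalization. Signals near the floor limit WRKY31, WRKY27, WRKY71 and WRKY55. The wild-type control signals of WRKY45 (91.2) and WRKY75 (106.6) were also not far above the floor of 81.1. No paired analysis was possible because each group has 1 array, and the numbers in the column headers differ between the arrays of every pair compared. An additive model of genotype and solution, which leaves 1 residual degree of freedom over the 4 arrays, was not fitted.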

Other observations

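Among the family genes listed by code, 4 had a probe set whose title does not hold the word WRKY and so were no members. WRKY1, titled ZAP1, had signals of 666, 606, 635 and 653 in wild-type control, wild-type Al, wrky47 control and wrky47 Al, with Al differences of -0.14 and 0.04. WRKY16, titled TTR1, differed by 0.13 and -0.25, and WRKY52, the resistance gene RRS1, by 0.05 and 0.32. WRKY44, titled TTG2 and known from root hair and seed coat patterning, was below the floor on all 4 arrays, with signals of 21.8 to 22.3. None of the 4 differed by 2-fold in any comparison.

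Some members of 1 subgroup that are known to act together differed in what the arrays show. WRKY33 was past 2-fold in both genotypes and WRKY25 in neither. WRKY18 and WRKY40 were higher on both Al arrays and WRKY60 lower on both. WRKY70 rose in both genotypes, while its relative WRKY54 was at -0.14 and 0.39.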
